A study of Mus musculus with 18 samples.

Results

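Translational efficiency (TE), the amount of ribosome footprints (RPFs) on a gene relative to its mRNA, is described here for 5 genes of the Wnt pathway in 3 tissues of the mouse embryo at E11.5: mesoderm, neural tube (NT) and forelimb bud (FL). The genes are *Dvl1*, *Apc*, *Apc2*, *Rspo1* and *Apcdd1*. They were chosen by their low TE in the mesoderm, the ratio of mesoderm RPFs to mesoderm mRNA. The mesoderm values are therefore given as a description with no test. The NT and FL values did not enter that rule, beyond the need for a row in the NT and FL data. The choice was made with earlier results of these data known, so the NT and FL tests are not fully independent of it. All 5 were found in both deposited tables, which share 11054 genes and hold 12241 between them. *Dvl1* and *Apcdd1* were translated at a low efficiency in NT and FL as well. *Rspo1* was low in NT and did not pass the test in FL, whereas *Apc* and *Apc2* were low in FL and did not pass the test in NT. The change of TE between NT and FL was itself tested and passed for none of the 5 genes in limma with all libraries. Whether it passed for *Apc*, *Apc2* and *Rspo1* depended on which Ribo-Seq libraries were used. For *Apc* and *Rspo1* it also depended on the method, as DESeq2 called both with all libraries, among 287 lower and 449 higher of 11231 genes.

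Wnt proteins are secreted signals that act through Frizzled and Lrp receptors. Without a signal, a destruction complex built on the scaffold proteins Apc and Axin marks beta-catenin for degradation, and with a signal Dishevelled proteins at the receptor block that complex so that beta-catenin reaches the nucleus. In the embryo the pathway patterns the neural tube, drives the outgrowth of the limb and maintains progenitors of the mesoderm.

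Ribo-Seq sequences the pieces of mRNA covered by a ribosome (ribosome-protected fragments, RPFs), and RNA-Seq measures the mRNA itself. There were 18 libraries, with 3 replicates of each library type in each of the 3 tissues. Mesoderm was the GFP+ fraction sorted from dissociated embryos that carried the alleles Tg(T-cre)1LWD/J/+ and R26-mTmGflox/+, in which Cre is driven by the promoter of *T* and marks descendants of the primitive streak, many cell types among them. NT and FL were dissected from wild-type FVB embryos, so strain, sorting and tissue cannot be told apart between mesoderm and the other 2 tissues. All 3 tissues were handled in cycloheximide, which holds ribosomes on the mRNA. In bulk tissue, fewer cells that express a gene and less RNA per cell cannot be told apart.

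The libraries held between 11000015 and 50136443 reads on the genes of the tables. Among Ribo-Seq libraries, Pearson's r over genes on the log2 scale was 0.976 between FL replicates 1 and 2, but 0.886 and 0.896 between each of them and FL replicate 3. NT replicate 3 had r of 0.933 and 0.934 with the other NT Ribo-Seq libraries, which had 0.989 with each other. In mesoderm r was 0.919 between replicates 1 and 2 and 0.96 between each of them and replicate 3. FL replicate 3 was also the FL Ribo-Seq library closest to the FL mRNA, with r of 0.901 to 0.908 against 0.728 to 0.740 for replicates 1 and 2. NT replicate 3 was instead the farthest from the NT mRNA, with r of 0.831 to 0.856 against 0.897 to 0.922. Which of these libraries better represents the tissue was not tested, so the results below that rest on them are given with all libraries, without the 2 Ribo-Seq libraries numbered 3 and, for the members, with the FL Ribo-Seq library numbered 3 alone. In that last setting 1 library stands for FL Ribo-Seq and its spread is assumed to be that of the other groups, so its values are given for their size and a missed call there is not read. Of the marker lists, 2 of 17 neural tube genes could be looked up (*Nes* and *Dcx*), and their summed mRNA was 17436 to 29556 normalized reads in NT and 4668 to 5567 in FL. For limb mesenchyme 3 of 16 could be (*Hoxd11*, *Hoxd13* and *Msx1*), with sums of 1026 to 1489 in NT and 13223 to 17102 in FL. In mesoderm, *Tcf15* and *Myf5*, 2 of 11 mesoderm markers, summed to 717 to 977 and the neural tube pair to 6460 to 8651. None of these markers was at 0.

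In the GENCODE annotation of GRCm38 (mm10), *Rspo1* (uc008urn.1) lies on the plus strand of chromosome 4 from 124986430 to 125009099 and *Dvl1* (uc008wfc.1) on the plus strand of the same chromosome from 155847402 to 155859303. *Apc* (uc008eke.2) lies on chromosome 18 from 34220924 to 34322552, *Apcdd1* (uc029tnh.2) on chromosome 18 from 62922231 to 62961179 and *Apc2* (uc007gcp.1) on chromosome 10 from 80295977 to 80318263, also on the plus strand. Taking for each gene the coding transcript with the longest CDS, which can differ from the isoform the authors counted on, the proteins are 265 residues long for *Rspo1*, 514 for *Apcdd1*, 695 for *Dvl1*, 2303 for *Apc2* and 2842 for *Apc*. The CDS of *Apc* is longer than that of 99.3% of 20408 coding genes with an annotated 5′-UTR and that of *Apc2* is longer than 98.7%, whereas that of *Rspo1* is longer than 25.6%.

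The 5′-UTR, in which an upstream AUG (uAUG) can engage a scanning ribosome before the main start codon, differed widely between the 5 genes. It is 482 nt long in *Rspo1*, 433 nt in *Apcdd1*, 333 nt in *Dvl1* and 311 nt in *Apc*, all above the median of 164 nt over coding genes, but only 23 nt in *Apc2*. The letters ATG occur on the sense strand of the 5′-UTR 4 times in *Rspo1*, 2 times each in *Apcdd1* and *Apc*, 1 time in *Dvl1* and 0 times in *Apc2*. Among all coding genes with a 5′-UTR, 53.3% hold at least 1. Among genes whose 5′-UTR is of like length (0.8 to 1.25 times), the share is 89.9% for *Rspo1*, 88.3% for *Apcdd1*, 81.4% for *Dvl1*, 78.7% for *Apc* and 6.97% for *Apc2*. The counts lie near those common for the length, with a median of 3 at the lengths of *Rspo1* and *Apcdd1* and of 2 at those of *Dvl1* and *Apc*. Such a match describes the annotated letters and shows no use of the site. The 5′ ends in use in these tissues were not tested for the 5 genes, so the annotated lengths may fall short. By mapping capped 5′ ends, the paper found 5′-UTRs longer than annotated for *Ptch1*, *Gli1*, *Wwc1* and *Sav1*.

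**Figure D1:**
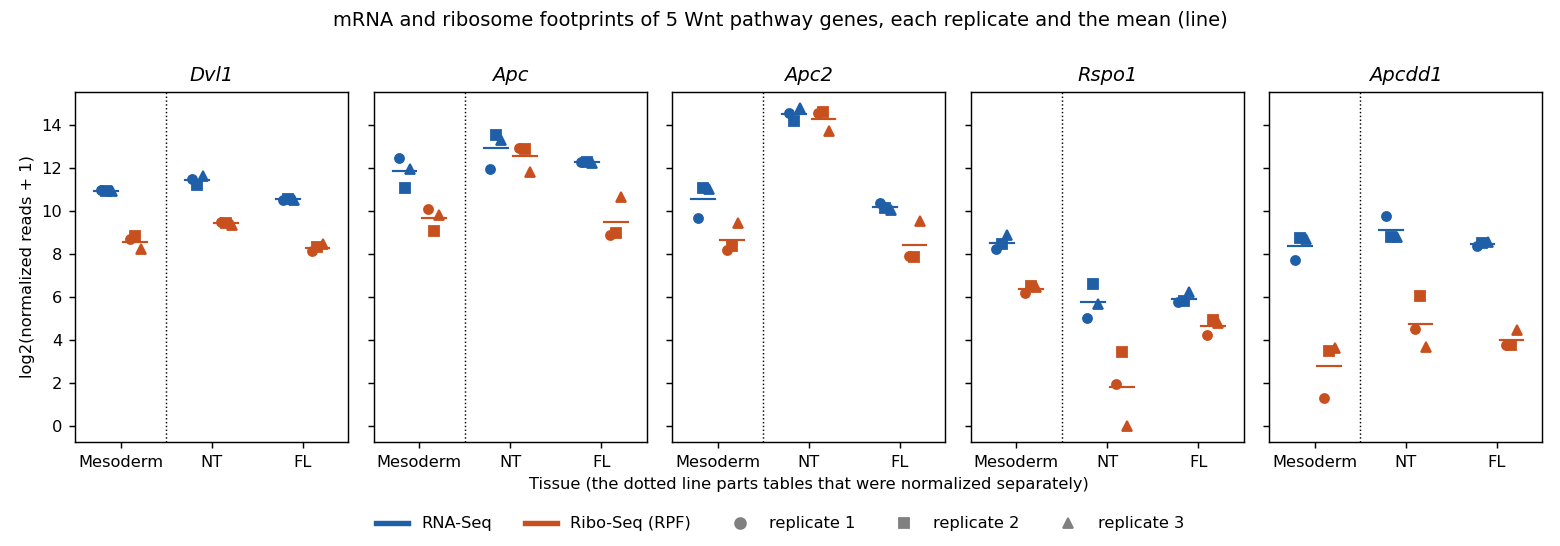
Log2(normalized reads + 1) of RNA-Seq (blue) and Ribo-Seq (orange) for each gene, with a symbol per replicate and a line at the mean of the 3 replicates. In FL, Ribo-Seq of *Apc* and *Apc2* lies higher in replicate 3 (triangle) than in replicates 1 and 2, and *Rspo1* has 0 RPF reads in NT replicate 3. The 2 tables were normalized separately, so levels are not compared across the dotted line.

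TE was taken in each replicate as the log2 ratio of RPFs to mRNA with 1 normalized read added to each, and set to 0 at the median gene of the tissue. A gene was called low when it lay at least 3-fold below the median, a log2 of 1.585, at an adjusted p under 0.05 in limma. By that rule 10.9% of all genes were low in the mesoderm, where all 5 members were, which only restates how they were chosen. In NT 4.13% of all genes were low and 3 of the members, and in FL 13.4% of all genes and 4 of the members. At 3-fold above the median, none of the members was called, against 1.17% of all genes in the mesoderm, 0.436% for NT and 6.25% for FL. In the mesoderm *Apc2*, at -1.95 ± 0.67 (SD, n = 3), was the member nearest to 3-fold below the median, and without replicate 2 it was at -1.57, short of it. Of the other Wnt pathway genes that could be looked up, *Celsr1* lay just inside that limit in the mesoderm at -1.59 and *Tnks2* just outside at -1.42.

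**Figure D2:**
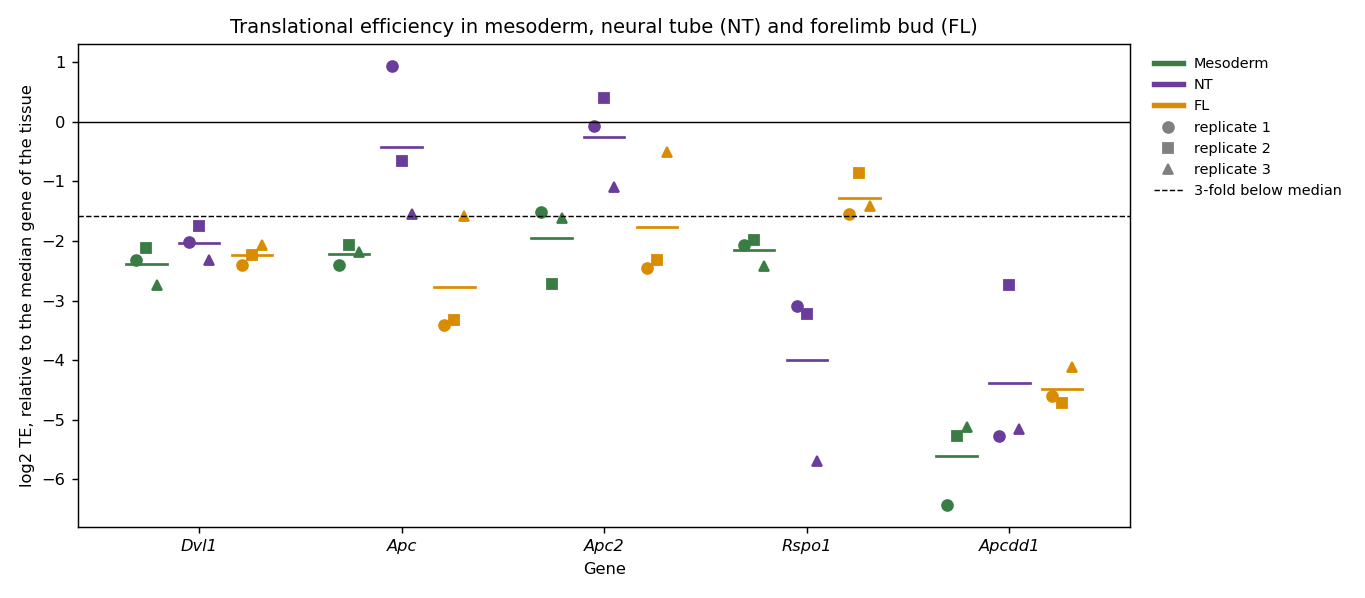
Log2 TE of each gene in mesoderm (green), NT (purple) and FL (orange) relative to the median gene of the tissue (0), with a symbol per replicate, a line at the mean of 3 replicates and a dashed line at 3-fold below the median. *Dvl1* and *Apcdd1* lie below the dashed line in all 6 values of NT and FL, whereas *Apc* and *Apc2* in NT lie above it in all 3 replicates.

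On the ligand side, *Rspo1* encodes a secreted R-spondin, which strengthens Wnt signals by keeping their receptors at the cell surface. Its mRNA was 31.3, 97.7 and 49.6 normalized reads in NT replicates 1, 2 and 3, and 53.2, 55.1 and 73.0 in FL. The ranges overlap, and the fitted difference of 0.14 on the log2 scale did not pass the test (limma, adjusted p = 0.939, 95% interval -1.56 to 1.83). RPFs were 2.89, 9.76 and 0 in NT, from 4, 12 and 0 reads, and 17.6, 29.8 and 26.9 in FL, from 11, 14 and 18 reads. In normalized reads every FL library thus held more RPFs than every NT library. In reads before normalization, FL replicate 1 had 11 and NT replicate 2 had 12. The mean of RPFs was 5.88 times as high in FL, and the fitted log2 difference of 2.82 (SE 0.78, adjusted p = 0.0112 in limma) passed the test. It rests on few reads, being 1.45 with 8 normalized reads added before the logarithm. Without NT Ribo-Seq replicate 2 it was 3.64 and without NT Ribo-Seq replicate 3 it was 1.93 (1.84 without both libraries numbered 3), with the call kept each time, and with the FL library numbered 3 alone it was 2.99.

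Log2 TE of *Rspo1* was -3.08, -3.23 and -5.69 in NT, as against -1.54, -0.87 and -1.41 in FL. The groups do not overlap, FL being the higher. The mean in NT was -4.00 ± 1.47 (SD, n = 3) and passed the test for low TE (adjusted p = 0.00347 in limma). With 8 normalized reads added it was -2.45, without NT Ribo-Seq replicate 2 it was -4.83 and without NT Ribo-Seq replicate 3 it was -3.11, with the call kept each time. In FL the mean was -1.27 ± 0.36, which did not pass (adjusted p = 0.175), with -1.35 without both libraries numbered 3. The mesoderm, whose TE chose the gene and where *Rspo1* had 586 to 800 mRNA reads per library, gave -2.07, -1.98 and -2.43.

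*Apcdd1* encodes a membrane glycoprotein that binds Wnt and its receptor and inhibits the signal. It had the lowest TE of the 5 genes in each tissue by mean. Its mRNA was 862, 434 and 440 normalized reads in NT and 334, 361 and 378 in FL. FL lay below NT in every library, but the log2 difference of -0.64 did not pass the test (limma, adjusted p = 0.470). RPFs were 21.7, 65.9 and 11.6 in NT, against 12.8, 12.8 and 20.9 in FL, from 30, 81 and 8 reads and from 8, 6 and 14 reads. The log2 difference in RPFs of -0.77 did not pass either (adjusted p = 0.241). It was -1.31 without NT Ribo-Seq replicate 3 (adjusted p = 0.0370) and -1.54 without both libraries numbered 3 (adjusted p = 0.0117), which passed, and -0.30 with the FL library numbered 3 alone. In the mesoderm 412 to 892 mRNA reads stood against 1, 5 and 5 RPF reads. RPF reads were therefore few in FL and the mesoderm and in NT replicate 3, and more in NT replicates 1 and 2.

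Log2 TE of *Apcdd1* was -5.28, -2.73 and -5.16 in NT, -4.60, -4.72 and -4.12 in FL, and -6.43, -5.27 and -5.12 in the mesoderm. NT replicate 2 stands apart as the highest, and NT and FL overlap. The mean in NT was -4.39 ± 1.44 (SD, n = 3), a TE 21.0-fold below the median gene (adjusted p = 0.000173 in limma, 95% interval 0.0219 to 0.104 of the median). In FL it was -4.48 ± 0.32, or 22.3-fold below (adjusted p = 7.4e-05, 95% interval 0.0206 to 0.0978). In NT it was -5.07 without Ribo-Seq replicate 2 and -3.85 without Ribo-Seq replicate 3. Only 0.125% of genes in NT and 0.347% in FL had a lower mean TE. The call held in NT and in FL under all 24 alternatives, with FL values of -4.06 for the Ribo-Seq library numbered 3 alone, -4.70 without both libraries numbered 3 and -3.98 with 8 normalized reads added.

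*Dvl1* encodes a Dishevelled protein, which carries the signal from the receptor to the destruction complex. Its mRNA was 2857, 2330 and 3165 normalized reads in NT, and 1468, 1501 and 1464 in FL. RPFs were 716, 703 and 648 in NT, against 277, 318 and 351 in FL. For both quantities all FL libraries lay below all NT libraries. The log2 difference was -0.93 for mRNA (SE 0.19, adjusted p = 0.00236 in limma), short of the 2-fold the rule asks for, and -1.17 for RPFs (SE 0.19, adjusted p = 0.000279), which passed. Without NT RNA-Seq replicate 2 the mRNA difference reached -1.04 and passed, and that of RPFs was -1.30 without both Ribo-Seq libraries numbered 3 and -0.99 with the FL library numbered 3 alone.

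Log2 TE of *Dvl1* was -2.02, -1.76 and -2.32 in NT, -2.40, -2.24 and -2.06 in FL, and -2.32, -2.12 and -2.74 in the mesoderm. NT and FL overlap, and each of their values lies more than 3-fold below the median gene. The mean was -2.03 ± 0.28 in NT (4.09-fold below, adjusted p = 5.28e-05 in limma) and -2.24 ± 0.17 in FL (4.71-fold below, adjusted p = 1.12e-05; SD, n = 3 for both). The calls in both tissues held under all 24 alternatives, with -2.00 in NT and -2.32 in FL without both Ribo-Seq libraries numbered 3. mRNA and RPFs of *Dvl1* were therefore both lower in FL, with a change of TE between the tissues of -0.24 (95% interval -0.81 to 0.34, adjusted p = 0.575).

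*Apc* encodes the large scaffold of the destruction complex and a tumour suppressor. Its mRNA was 4009, 11672 and 10170 normalized reads in NT and 4937, 4975 and 4786 in FL. NT replicate 1 lay below every FL library, so the groups overlap, and the log2 difference of -0.70 did not pass the test (limma, adjusted p = 0.387). RPFs were 7841, 7592 and 3546 in NT, against 467, 499 and 1606 in FL. All FL libraries lay below all NT libraries, and FL replicate 3 held over 3 times the RPFs of FL replicates 1 and 2. The log2 difference in RPFs was -3.08 (SE 0.49, adjusted p = 0.000254), a mean 7.38 times as high in NT. It was -4.04 without both Ribo-Seq libraries numbered 3, which passed, and -1.90 with the FL library numbered 3 alone.

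Log2 TE of *Apc* was 0.94, -0.65 and -1.55 in NT, as against -3.40, -3.32 and -1.58 in FL. The groups do not overlap, but NT replicate 3 and FL replicate 3 nearly meet, and NT replicate 1 and the first 2 FL replicates lie far apart. The NT mean of -0.42 ± 1.26 (SD, n = 3) did not pass the test for low TE (adjusted p = 0.544 in limma), while the FL mean of -2.77 ± 1.03 passed (6.81-fold below the median, adjusted p = 0.000658). With FL Ribo-Seq replicate 3 alone the FL value was -1.64. Without both libraries numbered 3 it was -3.35, and that of NT -0.054. Without NT RNA-Seq replicate 1 the NT value was -0.91, which did not pass either. The mesoderm, whose TE chose the gene, gave -2.40, -2.06 and -2.18.

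*Apc2* encodes a paralogue of Apc that is best known from the nervous system. It showed the largest difference in level between the tissues of the 5 genes. Its mRNA was 24178, 18496 and 28260 normalized reads in NT and 1298, 1137 and 1043 in FL, a mean 20.4 times as high in NT. The log2 difference was -4.36 (SE 0.39, adjusted p = 1.94e-06 in limma), and the test was passed under all 23 alternatives run for mRNA. The mRNA of the neural tube markers *Nes* and *Dcx* was higher in NT as well, and its part in this difference was not tested. RPFs were 23597, 24902 and 13474 in NT, against 236, 228 and 732 in FL. That is a mean 51.8 times as high in NT, and a log2 difference of -5.91 (SE 0.39, adjusted p = 9.28e-08). It was -6.75 without both Ribo-Seq libraries numbered 3 and -4.78 with the FL library numbered 3 alone.

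Levels of different genes can be set side by side per kilobase of CDS. The length used was that of the longest annotated CDS less the codons left out, which can differ from the isoform the authors counted on. On that scale *Apc2* had 3452 normalized RNA-Seq reads in NT against 1018 for *Apc*, and 169 in FL against 579 for *Apc*. The order of the paralogues thus turned between the tissues. RPFs per kilobase followed the same order, 3016 for *Apc2* and 747 for *Apc* in NT and 58.2 and 101 in FL. In mesoderm the RNA-Seq values were 242 for *Apc2* and 464 for *Apc*.

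Log2 TE of *Apc2* was -0.065, 0.40 and -1.10 in NT, as against -2.46, -2.32 and -0.51 in FL. FL replicate 3 lies inside the range of NT, and FL replicates 1 and 2 below it. The NT mean of -0.25 ± 0.77 (SD, n = 3) did not pass the test for low TE (adjusted p = 0.652 in limma). The FL mean of -1.76 ± 1.08 passed (3.40-fold below the median, adjusted p = 0.00234), but was -0.68 with FL Ribo-Seq replicate 3 alone and -2.32 without both libraries numbered 3, where that of NT was 0.021. It also fell short of 3-fold in edgeR (-1.55) and DESeq2 (-1.57) on the recovered reads, and without FL Ribo-Seq replicate 1 (-1.51) or 2 (-1.48). The mesoderm, whose TE chose the gene, gave -1.51, -2.72 and -1.61.

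Whether TE itself differs between FL and NT was tested as the interaction of library type with tissue, with a call where the change was 2-fold or more and its adjusted p below 0.2. None of the 5 genes passed in limma, where 0.276% of all genes were lower and 0.107% higher in FL. At an unadjusted p under 0.05 there were 1085 lower and 823 higher genes, with *Apc*, *Apc2* and *Rspo1* among them but not *Dvl1* or *Apcdd1*. The change was -2.38 for *Apc* (95% interval -3.87 to -0.89), -1.54 for *Apc2* (-2.74 to -0.35) and 2.69 for *Rspo1* (0.30 to 5.08), each with an adjusted p of 0.291. For *Apcdd1* it was -0.12 (-1.71 to 1.47, adjusted p = 0.928). edgeR called none of the 5, and 25 lower and 18 higher of all 11231 genes. DESeq2 called *Apc* lower (-2.10, adjusted p = 0.09997) and *Rspo1* higher (2.38, adjusted p = 0.187). It called 287 lower and 449 higher of all 11231 genes, far more than limma. In limma the change of *Apc* was -1.90 without NT RNA-Seq replicate 1, and did not pass.

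These calls changed with the Ribo-Seq libraries numbered 3. Without FL Ribo-Seq replicate 3, *Apc* was at -2.98 (adjusted p = 0.00183) and *Apc2* at -2.11 (adjusted p = 0.00104), both lower in FL, and *Rspo1* at 2.60 (adjusted p = 0.101), higher in FL. The counts over all 11231 genes moved too, to 2288 lower and 1767 higher from 31 and 12 with all libraries, while *Dvl1* and *Apcdd1* passed in neither case. Without NT Ribo-Seq replicate 3 the same 3 members passed, at -2.78, -1.85 and 1.77, where 1759 of all genes were lower and 1136 higher. Without both they passed at -3.38, -2.42 and 1.68, where 2629 of all genes were lower and 2131 higher. With so many genes called, these passes are not particular to the members. With the FL Ribo-Seq library numbered 3 alone, *Apc* was at -1.22, *Apc2* at -0.43 and *Rspo1* at 2.85. The direction of the change for *Apc*, *Apc2* and *Rspo1* was the same in each of these fits, all of which kept replicates 1 and 2 of NT. Between the replicates numbered 3 alone, log2 TE of FL minus NT was -0.03 for *Apc*, 0.58 for *Apc2* and 4.28 for *Rspo1*. There *Apc* hardly differed and *Apc2* went the other way. The value of *Rspo1* rests on 0 RPF reads in NT replicate 3, so its size depends on the 1 normalized read added.

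**Figure D3:**
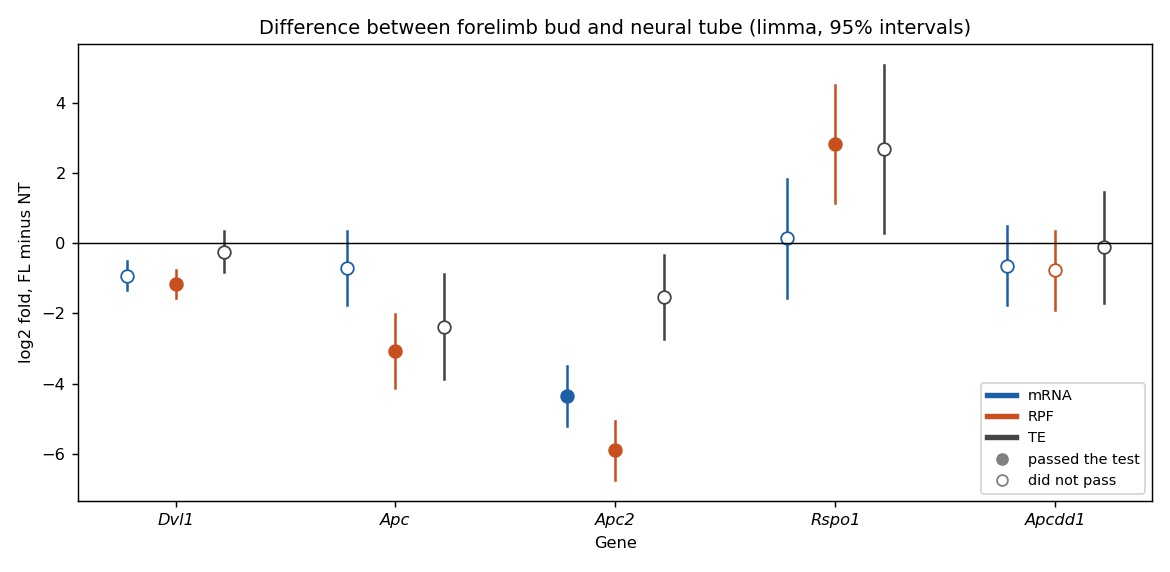
Log2 fold of FL minus NT for mRNA (blue), RPFs (orange) and TE (grey) of each gene from limma, with 95% intervals, filled where the test was passed. mRNA passed for *Apc2* only, RPFs passed for all but *Apcdd1*, and TE passed for none. All libraries were used, and *Apcdd1* passed for RPFs without NT Ribo-Seq replicate 3.

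**Figure D4:**
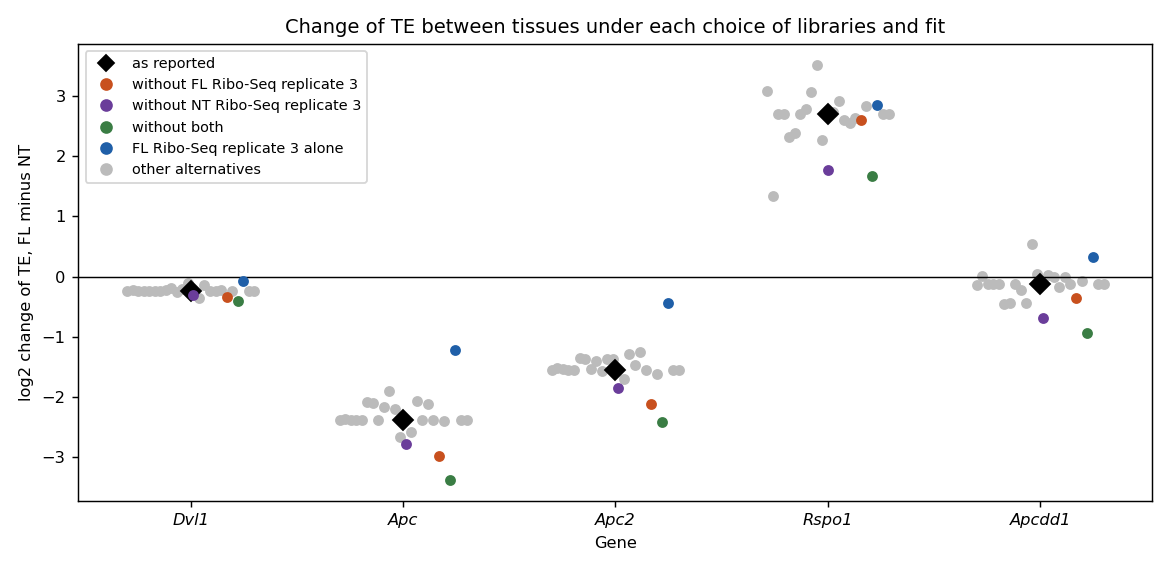
Log2 change of TE, FL minus NT, under each alternative (points) and as reported (diamond). *Apc* moves from -3.38 without both Ribo-Seq libraries numbered 3 (green) to -1.22 with the FL library numbered 3 alone (blue), and *Apc2* from -2.42 to -0.43, whereas *Dvl1* stays between -0.41 and -0.07.

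Over the 5 genes, mRNA was called lower in FL for *Apc2* alone, where 9.77% of all genes were, and higher for none (7.6% of all genes), and RPFs were called lower for *Apc*, *Apc2* and *Dvl1* (18.6% of all genes) and higher for *Rspo1* (14.0%). The 3 FL replicates lay wholly below the 3 NT replicates in mRNA for *Dvl1*, *Apc2* and *Apcdd1*, as for 24.1% of all genes. In RPFs they did so for *Dvl1*, *Apc* and *Apc2* (21.1%), and lay wholly above for *Rspo1* (21.5%). In TE they lay wholly below for *Apc* (6.81%) and wholly above for *Rspo1* (10.1%). Over replicates 1 and 2 alone, FL lay wholly below NT in RPFs for *Apcdd1* as well (43.0% of all genes) and in TE for *Dvl1* and *Apc2* as well (35.3%), and wholly above for *Rspo1* in RPFs (45.4%) and TE (40.9%).

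The genes whose TE pattern was most like that of each member were taken by Pearson's r over the 9 replicate values of log2 TE, among 2925 genes with a symbol and enough mRNA in each tissue. These values share their libraries, so r describes likeness and carries no p. For *Apc* they were *Zfp318* (r = 0.991), *Ttbk2* (0.988) and *Ranbp2* (0.986), and for *Apc2* they were *BC034090* (0.9896), *Nhsl1* (0.989) and *Sbf1* (0.986). For *Dvl1* they were *Adcy7* (0.857), *Xntrpc* (0.854) and *Rhbdl1* (0.853), and for *Apcdd1* they were *Recql4* (0.949), *Smad6* (0.944) and *Atg4d* (0.891). Between members, *Apc* and *Apc2* had r = 0.815, *Dvl1* had 0.551 with *Apc*, 0.579 with *Apc2* and 0.562 with *Apcdd1*, and *Apcdd1* had 0.176 with *Apc* and 0.473 with *Apc2*. Without the NT and FL values numbered 3, r over the remaining 7 values was 0.831 between *Apc* and *Apc2* and 0.175 between *Apc* and *Apcdd1*. The genes named for each member then had r of 0.862 or more with it. They were picked over the 9 values that include these 7, so a high r is partly set by the choice. *Rspo1* had too little mRNA in NT and FL for this comparison.

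Of a list of 106 Wnt pathway genes, 25 could be looked up, the 5 members among them, and 19 others had a row in the NT and FL table. Symbols were available mainly for genes with a marked TE, so these counts are not those of the whole pathway. In NT, 3 of the 19 were low, the Wnt co-receptor *Ryk* (-2.09), the casein kinase *Csnk1g2* (-2.64) and the Dkk receptor *Kremen2* (-1.68), and 0 were high. Over all genes 4.13% were low and 0.436% high in NT. *Kremen2* was low in 2 of the 12 fits that left out 1 library, between -2.59 and -1.20, whereas *Ryk* and *Csnk1g2* were low in all 12. In FL, 8 of 19 were low, *Ryk* (-2.23) and *Csnk1g2* (-2.17) again among them, and *Ctnnbip1*, an inhibitor of beta-catenin, was high (1.83). Over all genes 13.4% were low and 6.25% high in FL. Without both Ribo-Seq libraries numbered 3 there were 9 low in FL, as were 2042 of all 11231 genes. The median log2 TE of the 19 was -0.39 in NT and -0.90 in FL (-0.40 and -1.06 without both), where that of all genes is 0. With the FL library numbered 3 alone the FL median was -0.48. *Ryk* and *Csnk1g2* were also low in the mesoderm (-2.30 and -2.82).

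Between the tissues, 0 of the 19 passed for TE in limma with all libraries, where 0.276% of all genes were lower and 0.107% higher. Without both Ribo-Seq libraries numbered 3, 9 were lower and 5 higher in FL, as were 2629 and 2131 of all 11231 genes. Part of the symbols came from the study's own list of genes with a different TE between NT and FL. The counts and medians of the 19 between the tissues are thus partly set by these same data, and no excess over all genes is read from them. In mRNA 3 were lower in FL (9.77% of all genes), with the planar polarity cadherin *Celsr2* at -4.38 close to *Apc2*. Another 5 were higher in mRNA (7.6% of all genes), the ligand *Wnt6* at 3.77 and the receptor *Ror2* at 3.03 among them. In RPFs 6 were lower and 7 higher (18.6% and 14.0% of all genes), with *Celsr2* at -5.80, *Wnt6* at 4.89 and *Kremen2* at 6.47. Without both libraries numbered 3 these were 8 and 7, against 3016 and 2566 of all genes. The median change of the 19 was 0.37 for mRNA, 0.18 for RPFs and -0.68 for TE, where that of all genes is 0.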

How the data were processed

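Mapped RPFs and RNA-Seq reads were processed alike by the authors, who trimmed adapters (cutadapt), removed rRNA, tRNA and snRNA reads, aligned the rest with Bowtie2 to UCSC canonical genes of mm10, kept unique matches and summed them per coding sequence, leaving out 15 codons at its start and 5 at its end. The deposited signal values are these counts after the authors divided them by library size factors (DESeq). Whole reads were recovered from them in 100.0% of values (within 0.1 of a read) and were used for edgeR 4.0.16 and DESeq2 1.42.0 as alternatives.

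Log2(normalized reads + 1) was fitted with limma 3.58.1 (R 4.3.3), with a variance that follows the mean, Benjamini-Hochberg adjustment over all genes of a table and contrasts centred on their median. The 12 NT and FL libraries shared a fit without a block. Per the study's methods NT and FL were dissected from the same embryos and NT cells were divided between library types, but no source ties equal numbers to the same embryos, and same-numbered Ribo-Seq and RNA-Seq libraries did not deviate together in every replicate (r of -0.28, 0.35 and 0.05 for NT and 0.05, 0.12 and 0.09 for FL), so the block was an alternative. The 6 mesoderm libraries were fitted with the replicate as a block, since sorted cells of a replicate were split between library types (r of deviations 0.74, 0.58 and 0.57). Differences in mRNA and RPFs were called where they reached 2-fold with an adjusted p below 0.05. Where nothing states that replicates came from separate embryos, p-values measure the spread between these samples only. Symbols came from the supplementary tables, for 28.4% of mesoderm and 29.2% of NT and FL genes, which voids a check of CDS length over all genes. The named genes were the members, the Wnt list and the 3 genes most like each member with at least 100 mean normalized reads of mRNA per tissue. The members and lists were chosen with earlier results of these data known, and 2 choices of Ribo-Seq libraries (without both numbered 3, and FL number 3 alone) were added after the data were seen. On simulated data, 181 of 200 genes with a 4-fold change of TE between FL and NT were recovered among 11231, with 32 unchanged genes called. The simulated reads were drawn independently for each library, so none stood apart as the Ribo-Seq libraries numbered 3 do. This recovery therefore does not measure how sensitive the test is in these libraries. Python 3.11.15 with numpy 2.4.6, pandas 2.3.3 and matplotlib 3.10.9 was used for the rest.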

Additional observations from a re-analysis of the deposited data

How the results depend on the processing

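The 3-fold calls of low TE for *Dvl1* and *Apcdd1* held in NT and FL under every alternative run, and none of the values of the 5 genes reversed with a call gained or lost. *Apcdd1* in the mesoderm moved from -5.60 to -4.55 with 8 normalized reads added, and *Rspo1* could not be fitted with a minimum mean of 100 normalized reads, which took the members with higher RPFs in FL from 1 to 0. Few RPF reads limit the precision for *Rspo1* and *Apcdd1*, and the causes of the changes below were not tested.

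Although both tissues came from the same embryos, equal replicate numbers were not found to pair NT and FL libraries (r of deviations -0.29, -0.50 and -0.58 in Ribo-Seq and -0.02, -0.22 and -0.24 in RNA-Seq). These r cannot show that pairing is absent, as the Ribo-Seq libraries numbered 3 stood apart from the others of their tissue. With the replicate number as a block, 5 genes had a lower and 1 a higher TE in FL against 31 and 12, and with the block within each tissue 3 and 1, with 0 members called in either.

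For the change of TE, DESeq2 called 287 genes lower and 449 higher, with 1 member each. Leaving out 1 library gave 1 to 2288 lower and 1 to 1767 higher genes, with 0 to 2 members lower and 0 to 1 higher, the highest without FL Ribo-Seq replicate 3, and 1759 and 1136 genes without NT Ribo-Seq replicate 3. Without both Ribo-Seq libraries numbered 3 there were 2629 lower and 2131 higher genes (2 and 1 members), 1422 genes of high TE in FL and 2566 genes with higher RPFs in FL. With the FL library numbered 3 alone, where 1 library takes its spread from the other groups, 2 genes had a lower and 1 a higher TE in FL, 488 were low and 36 high in FL (2 members low), and 1168 had lower and 839 higher RPFs (0 members higher). *Tnks2*, lower in RPFs in FL (-1.14), was then at 0.11.

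Leaving out 1 library gave 378 to 1417 genes of high TE in FL, 33 to 80 in NT, 72 to 271 in the mesoderm, and 1 to 2 members with lower mRNA in FL (*Dvl1* without NT RNA-Seq replicate 2). A threshold of 2-fold within a tissue gave 2596 low and 1582 high genes in the mesoderm, 1234 and 507 in NT and 2581 and 2128 in FL. A threshold of 3-fold between tissues gave 677 genes with lower and 463 with higher mRNA in FL, and 1205 and 664 for RPFs.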
